A study of Mus musculus with 23 samples.

Results

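The 10 genes belong to the growth-controlling kinase complex mTORC1 or its surroundings and were measured in mouse quadriceps. They were taken by symbol from a fixed list, Mtor, Rptor, Deptor, Tsc1, Tsc2, Rheb, Sesn1, Sesn2, Sesn3 and Rps6kb1, and each symbol matched 1 Ensembl identifier among the 55573 gene identifiers of the count table. All 10 passed the filter on low counts and were among the 13049 genes tested. The quadriceps came from C57BL/6J mice of 8 to 10 weeks, which carried a slow-release pellet for 14 days and were fasted for 5 hours before the muscle was taken. Corticosterone, the main glucocorticoid of rodents, was given to 6 males and 5 females as a pellet of 50 mg corticosterone with 50 mg cholesterol, and 6 males and 6 females received a vehicle pellet of 100 mg cholesterol. No deletion, transgene or further treatment is given for any of the 4 groups, and the females were not grouped by estrous stage. The comparisons addressed whether a glucocorticoid alters muscle gene expression alike in the sexes.

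As background, mTORC1 is a protein kinase complex at the lysosome that promotes protein synthesis and holds back autophagy when growth factors and amino acids are at hand. Its catalytic subunit is encoded by Mtor and its substrate-binding scaffold by Rptor, and Deptor encodes a subunit that inhibits the kinase. The small GTPase Rheb switches the kinase on, and the TSC complex of the Tsc1 and Tsc2 products keeps Rheb off. Sestrins are stress-inducible proteins that hold back mTORC1 by binding GATOR2, with leucine relieving that hold in the case of the Sesn2 and Sesn1 products, and Rps6kb1 encodes S6K1, a kinase that mTORC1 phosphorylates. In skeletal muscle the pathway sets the rate of protein synthesis, and glucocorticoids are known to dampen it. RNA levels do not measure the activity of the complex.

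RefSeq promoter windows of 300 bases, from 250 before to 50 after the start site (build GRCm38.p6), were found for 9 of the 10 genes. Deptor was not matched. Shown are both start sites of Sesn1, the gene with the largest male response, and the windows of Mtor and Tsc2, whose male groups also did not overlap. Capitals mark a match, on either strand, to one of the motifs searched, and lower case is all other sequence.
Sesn1 first start, chr10:41810324-41810623, + strand: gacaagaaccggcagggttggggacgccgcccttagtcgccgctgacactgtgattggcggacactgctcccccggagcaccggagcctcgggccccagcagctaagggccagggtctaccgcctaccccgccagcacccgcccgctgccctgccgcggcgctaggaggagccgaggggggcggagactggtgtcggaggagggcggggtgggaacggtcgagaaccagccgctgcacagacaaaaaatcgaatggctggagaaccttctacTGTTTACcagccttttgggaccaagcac
Sesn1 second start, chr10:41887189-41887488, + strand: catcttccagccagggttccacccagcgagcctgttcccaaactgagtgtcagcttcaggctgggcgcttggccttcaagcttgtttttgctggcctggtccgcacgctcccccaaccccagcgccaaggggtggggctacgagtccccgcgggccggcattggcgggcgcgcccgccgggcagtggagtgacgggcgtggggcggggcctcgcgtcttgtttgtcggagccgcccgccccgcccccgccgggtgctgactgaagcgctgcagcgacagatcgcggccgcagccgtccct
Mtor, chr4:148448332-148448631, + strand: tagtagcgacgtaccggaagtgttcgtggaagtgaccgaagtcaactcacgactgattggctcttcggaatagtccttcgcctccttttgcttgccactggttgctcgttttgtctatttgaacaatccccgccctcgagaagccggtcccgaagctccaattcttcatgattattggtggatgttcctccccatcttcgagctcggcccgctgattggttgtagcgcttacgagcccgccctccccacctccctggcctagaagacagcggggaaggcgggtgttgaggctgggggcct
Tsc2, chr17:24632578-24632877, - strand: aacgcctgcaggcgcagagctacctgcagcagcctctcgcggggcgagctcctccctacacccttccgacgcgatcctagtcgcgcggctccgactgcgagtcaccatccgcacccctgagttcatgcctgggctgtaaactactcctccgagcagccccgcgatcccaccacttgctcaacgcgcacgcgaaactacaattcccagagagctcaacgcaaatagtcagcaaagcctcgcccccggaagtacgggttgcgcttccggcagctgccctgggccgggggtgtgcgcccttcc
The first Sesn1 window held the FOXO core GTAAACA in its reverse form TGTTTAC, 23 bases after the start site. Of all 32851 promoter windows of this length, 3.65% held that core. None of the motifs searched was found in the second Sesn1 window or in those of Mtor, Tsc1, Tsc2, Rptor, Rheb, Sesn2 and Sesn3. The other motifs were the glucocorticoid half-site AGAACA (19% of all windows), the glucocorticoid response palindrome, made of that half-site and its reverse around 3 free bases (0.00913%), and the ATF4 element TGATGNAA (3.97%). Among these genes the half-site occurred in the Rps6kb1 window, 105 bases before the start site. A match describes letters and shows no binding.

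Each library held between 20904150 and 21984477 gene counts. Fkbp5, a glucocorticoid receptor target, was at 149 CPM (counts scaled to the TMM-adjusted library size) or more in each of the 11 treated mice, above the vehicle maximum of 58.8 CPM. Corticosterone female F4 had the weakest response over 8 such targets, with a summed level of 625.6 CPM against 925 to 1539 CPM in the other 4 treated females and 303.3 to 663.8 CPM in vehicle females. Markers of muscle fibers were high in all libraries, at 74890 to 193800 CPM summed. Slow-fiber markers varied widely within each group. Summed, they ran from 29.69 to 5198 CPM in vehicle females (median 134.1) and from 160.8 to 2858 CPM in treated females (median 1251). In males they ran from 22.88 to 4841 CPM with vehicle (median 66.34) and from 22.63 to 2243 CPM with corticosterone (median 79.76). The part of fiber type in the results was not tested. Summed liver markers exceeded 1000 CPM in 5 mice, namely treated females F6 and F10, treated males M8 and M12, and vehicle male M9, against a vehicle female range of 37.67 to 319.7 CPM. Adipocyte markers reached 6894 CPM in F6 and ranged over 271 to 6894 CPM in treated females, 282.3 to 2612 CPM in vehicle females and 218.4 to 1002 CPM in all males. Results were recomputed without F4 and without those 5 mice.

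Per exon length, in vehicle mice of both sexes, the levels of the 10 genes fell into 3 tiers. In TPM (counts per union exon length, scaled to the same total in each mouse), the upper tier over the 12 vehicle mice was Deptor at 34.3 ± 9.15 (SD), Sesn1 at 28.3 ± 11.9, Rheb at 25.8 ± 2.0 and Tsc2 at 23.3 ± 1.83. The middle tier was Tsc1 at 12.6 ± 1.40 TPM, Rps6kb1 at 11.6 ± 1.03, Mtor at 9.76 ± 0.917 and Rptor at 7.10 ± 0.503. At the bottom stood the other two sestrins, Sesn3 at 3.19 ± 0.799 TPM and Sesn2 at 2.56 ± 0.590. The ranges of neighbours in this order separated at the step between Rptor (lowest mouse 6.13 TPM) and Sesn3 (highest 4.51 TPM) and at the step between the Tsc2 and Tsc1 ranges (lowest 19.9 and highest 15.7 TPM), whereas all other neighbours overlapped. These means pool the sexes. Sesn1 was at 37.6 ± 9.83 TPM in vehicle females (SD, n = 6) and at 19.0 ± 2.20 TPM in vehicle males (SD, n = 6), so that in males its mean stood below that of Rheb, 24.8 TPM, and that of Tsc2. Deptor was at 38.9 ± 9.61 TPM in vehicle females and 29.7 ± 6.41 TPM in vehicle males.

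**Figure D1:**
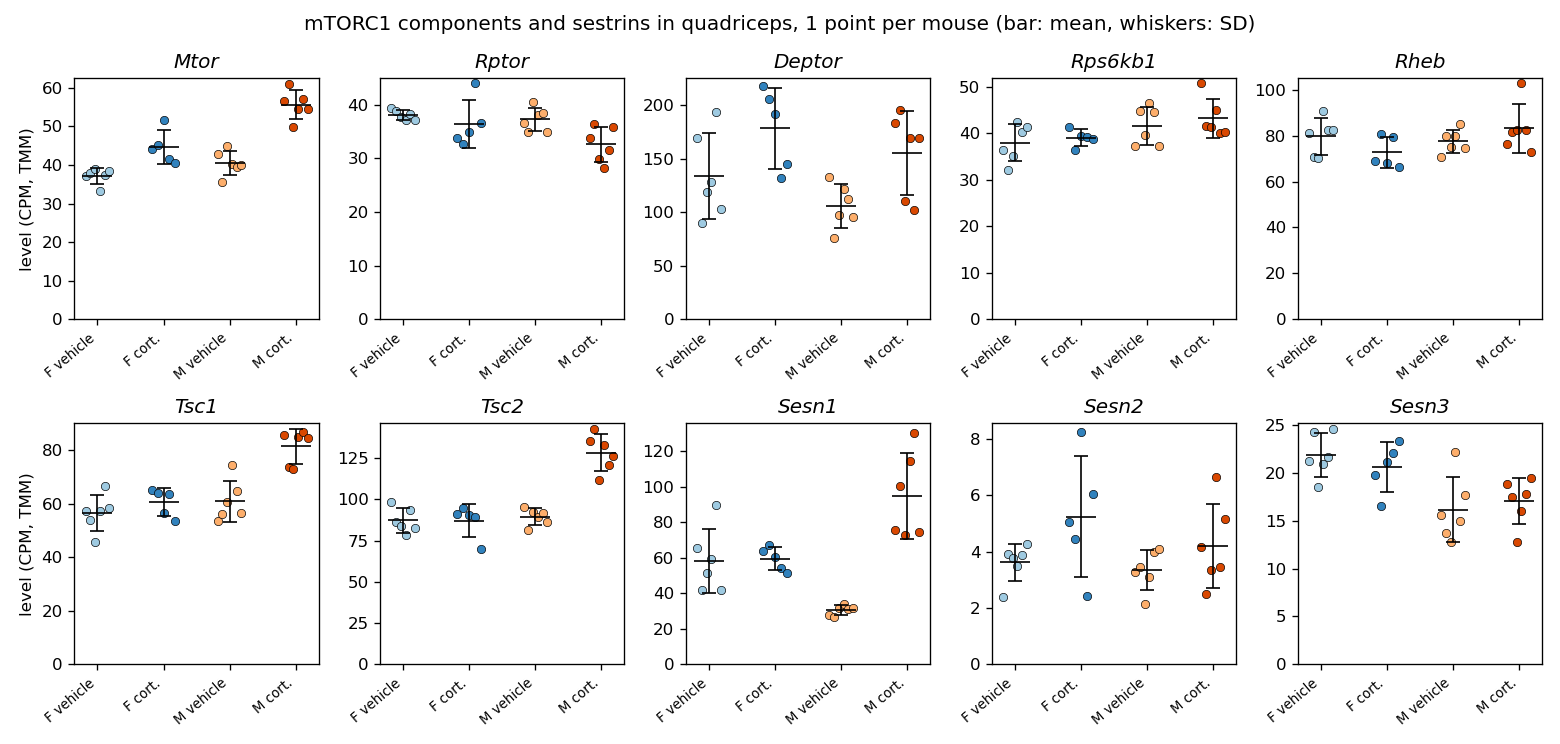
Level of each of the 10 genes in every mouse (vertical axis, TMM-scaled CPM from 0; 1 panel per gene), by group: female vehicle, female corticosterone, male vehicle and male corticosterone. Bars are means and whiskers SD. Sesn1 in the 6 treated males sits at 73.1 to 131 CPM, above all vehicle males at 26.6 to 34.1 CPM, while the 2 female groups overlap.

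In males, corticosterone raised Mtor, Tsc1, Tsc2 and Sesn1, which are 4 of the 10 genes, and lowered none at an adjusted p below 0.01. By the same rule 26.3% of all tested genes were called in males, 13.2% as higher. In 3 of those 4 genes, Mtor, Tsc2 and Sesn1, no treated male overlapped with a vehicle male, beside 21.9% of all tested genes. The median log2 fold change of the 10 genes in males was 0.374, beside -0.0206 over all genes, and 9 of the 10 values were positive. In females 1 of the 10 genes was called, Mtor as higher, beside 13.4% of all genes (7.40% as higher). Mtor was also the gene whose female groups did not overlap, beside 7.72% of all genes. The median of the 10 genes in females, 0.0343, was close to that of all genes, 0.0353. Without the 5 mice with liver markers over 1000 CPM the count was 4 in males and 0 in females, while 18.6% of all genes were called in males and 3.53% in females. Without F4 it was 4 and 0, beside 27% and 17.3% of all genes. Fibroblast markers were lower with corticosterone as well, 4 of 6 in males (summed 902.6 to 1370 CPM in vehicle and 327.8 to 493.2 CPM in treated mice) and 2 of 6 in females, and their part in these results was not tested. Of all 13049 tested genes 1706 were lower in males and 783 in females. In this bulk tissue, fewer cells of a type and less RNA per cell cannot be told apart.

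**Figure D2:**
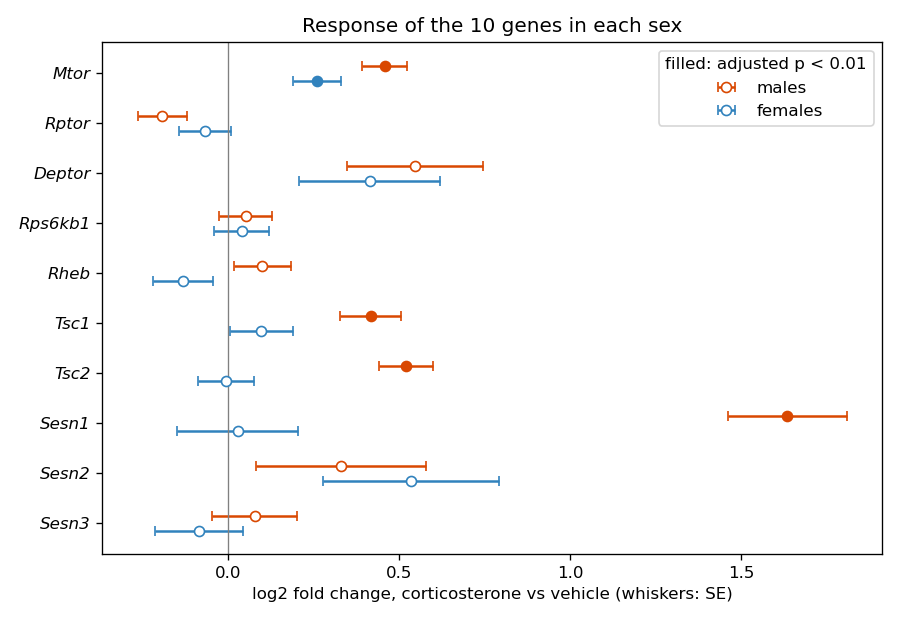
Response of each of the 10 genes to corticosterone as the log2 fold change against vehicle of the same sex (horizontal axis), males in orange and females in blue. Whiskers are SE and filled points passed an adjusted p below 0.01. Sesn1 lies at 1.64 in males and 0.03 in females.

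Among the sestrins, Sesn1 (ENSMUSG00000038332, chr10:41809935-41908424, build GRCm38) responded in males. In vehicle males Sesn1 ran from 26.6 to 34.1 CPM with a median of 31.5, and in treated males from 73.1 to 131 CPM with a median of 88.3. The lowest treated male stood well above the highest vehicle male. The mean rose 3.11-fold, from 30.5 ± 2.86 to 94.8 ± 24.3 CPM (SD, n = 6 and 6), with a log2 fold change of 1.64 (SE 0.17, adjusted p = 3.90e-07 in edgeR's quasi-likelihood test). In vehicle females Sesn1 already ran from 41.6 to 89.9 CPM with a median of 55.3, and the 5 treated females had 63.8 (F2), 67.0 (F4), 60.7 (F6), 54.2 (F8) and 51.3 CPM (F10). All treated females fell inside the vehicle range. The female log2 fold change was 0.03 (SE 0.18, adjusted p = 0.924), with a 95% interval of -0.34 to 0.40 that lies below the male interval of 1.27 to 2.0. The male response exceeded the female response by 1.61 on the log2 scale (SE 0.25, adjusted p = 0.00385 for the interaction of sex and treatment), which made Sesn1 the 1 gene of the 10 with a called interaction, beside 0.690% of all genes (0.368% with the larger value in males). This interaction lost its call without the 5 mice with liver markers (1.60, adjusted p = 0.0363), with the adipocyte score as covariate (1.54, adjusted p = 0.0161) and on leaving out F10, M3 or F10 and M8 together, with the same direction in all alternatives, and without F4 it stayed called (1.65, adjusted p = 0.00244).

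Sesn2 (ENSMUSG00000028893, chr4:132492032-132510501), a sestrin known to be induced by ATF4 under amino acid shortage, was sparse, at 42 to 204 counts per mouse. Vehicle females had 2.39 to 4.28 CPM (median 3.81) and vehicle males 2.15 to 4.11 CPM (median 3.37). The treated females had 5.05 (F2), 4.43 (F4), 8.24 (F6), 2.41 (F8) and 6.04 CPM (F10), and the treated males 2.49 to 6.66 CPM (median 3.81). Treated and vehicle mice overlapped in both sexes. The highest values of each treated group belonged to F6 and M8, which also had the highest summed adipocyte and liver markers of the study, 6894 and 2458 CPM, and the part of these markers in the Sesn2 values was not tested. Neither response passed the test, at 0.54 (SE 0.26, adjusted p = 0.128) in females and 0.33 (SE 0.25, adjusted p = 0.304) in males on the log2 scale, and with the adipocyte score as covariate the female value was 0.08. Sesn3 (ENSMUSG00000032009, chr9:14275067-14333101), a sestrin known as a FOXO target, kept similar means under both pellets, 16.2 ± 3.40 and 17.1 ± 2.43 CPM in males and 21.9 ± 2.29 and 20.6 ± 2.60 CPM in females. Its log2 fold changes were 0.08 (SE 0.12, adjusted p = 0.641) and -0.09 (SE 0.13, adjusted p = 0.666).

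Of the complex itself, the kinase gene Mtor (ENSMUSG00000028991, chr4:148448611-148557683) was higher with corticosterone in both sexes. Vehicle males ran from 35.6 to 44.8 CPM with a median of 40.1, and treated males from 49.95 to 61.1 CPM with a median of 55.6. In vehicle females it ran from 33.2 to 39.0 CPM with a median of 37.6, and the treated females had 44.2 (F2), 45.1 (F4), 51.6 (F6), 41.4 (F8) and 40.4 CPM (F10). Each treated mouse lay above every vehicle mouse of its own sex, by a narrow gap in females. The male log2 fold change was 0.46 (SE 0.067, adjusted p = 1.70e-05) and the female one 0.26 (SE 0.070, adjusted p = 0.00861), and their difference did not pass the test (0.20, SE 0.096, adjusted p = 0.162). The female call rests near the threshold and was lost in 23 of 33 alternatives, with values of 0.19 to 0.29 and adjusted p of 0.0028 to 0.0968. Leaving out F6, the treated female with the highest level and 6894 CPM of adipocyte markers, gave the lowest of these values.

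The scaffold gene Rptor (ENSMUSG00000025583, chr11:119602905-119899576) had values on the other side of 0. Treated males had 28.2 to 36.4 CPM (median 32.6) against 34.9 to 40.5 CPM (median 37.4) in vehicle males, and each treated male lay below the vehicle mean. The log2 fold change of -0.19 (SE 0.072, adjusted p = 0.0369) did not pass 0.01, and the female value was -0.07 (SE 0.075, adjusted p = 0.545). The inhibitor gene Deptor (ENSMUSG00000022419, chr15:55112317-55259271) had its vehicle levels spread over 76.2 to 133 CPM in males and 89.8 to 194 CPM in females. With corticosterone it had 102 to 195 CPM in males (median 169), and the treated females had 218 (F2), 206 (F4), 192 (F6), 132 (F8) and 145 CPM (F10). Of the treated males 4 of 6 lay above every vehicle male, and of the treated females 2 of 5 lay above every vehicle female. Its log2 fold changes, 0.55 in males (SE 0.20, adjusted p = 0.0320) and 0.41 in females (SE 0.21, adjusted p = 0.142), did not pass, although 5 of 6 treated males and 4 of 5 treated females lay above their vehicle mean.

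Tsc1 and Tsc2, the genes of the core of the TSC brake, rose in males. Tsc2 (ENSMUSG00000002496, chr17:24595816-24632630), which encodes the subunit that turns Rheb off, ran from 81.2 to 95.6 CPM in vehicle males with a median of 90.6 and from 112 to 142 CPM in treated males with a median of 130. Vehicle females had 78.5 to 98.7 CPM (median 85.3), and treated females had 91.0 (F2), 94.8 (F4), 90.5 (F6), 89.3 (F8) and 69.9 CPM (F10). All 6 treated males stood above every other mouse, while the female groups lay on top of each other apart from F10, which was the lowest of all and had 2374 CPM of liver markers. The male log2 fold change was 0.52 (SE 0.078, adjusted p = 2.41e-05) and the female one -0.00 (SE 0.082, adjusted p = 0.976; 95% interval -0.18 to 0.17). The difference of 0.53 between the sexes (SE 0.11, adjusted p = 0.0118) narrowly missed 0.01. It passed in 6 alternatives, among them DESeq2 (0.55, adjusted p = 0.000229), limma-voom (0.50, adjusted p = 0.00703) and the fit without F4 (0.56, adjusted p = 0.00659).

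Tsc1 (ENSMUSG00000026812, chr2:28641228-28691167), which encodes the partner that stabilises the Tsc2 product, followed with more spread. Vehicle males had 53.7 to 74.4 CPM (median 58.5) and treated males 72.9 to 87.0 CPM (median 84.8). Among the 6 treated males, 4 lay above every vehicle male, and M7 was the vehicle male that reached into the treated range. The log2 fold change in males was 0.42 (SE 0.089, adjusted p = 0.000792). Vehicle females had 45.9 to 66.7 CPM (median 57.3), and the treated females had 65.0 (F2), 64.2 (F4), 56.5 (F6), 63.7 (F8) and 53.5 CPM (F10), all inside that range. The female value was 0.10 (SE 0.093, adjusted p = 0.466) and the interaction 0.32 (SE 0.13, adjusted p = 0.0936), so a difference between the sexes in the Tsc1 response was not established. Rheb (ENSMUSG00000028945, chr5:24802823-24842624), the GTPase under this brake, had means of 77.5 and 83.1 CPM in vehicle and treated males and of 79.6 and 72.7 CPM in females. Its log2 fold changes were 0.10 (SE 0.083, adjusted p = 0.351) and -0.13 (SE 0.087, adjusted p = 0.281).

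The target gene Rps6kb1 (ENSMUSG00000020516, chr11:86498871-86544805) moved little in either sex. Its group means were 41.6 and 43.2 CPM in vehicle and treated males and 37.9 and 39.0 CPM in females. The 4 groups overlapped, from 32.2 to 50.8 CPM over the 23 mice. The log2 fold changes were 0.05 (SE 0.078, adjusted p = 0.623) and 0.04 (SE 0.081, adjusted p = 0.755), with an interaction of 0.01 (adjusted p = 0.952).

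Between the vehicle groups, Sesn1 was the called gene of the 10, lower in males, beside 0.958% of all tested genes (0.268% as lower in males). Its male mean was 0.524 of the female mean (log2 fold change -0.93, SE 0.17, adjusted p = 0.00255). All 6 vehicle males lay below all 6 vehicle females, the highest male at 34.1 CPM and the lowest female at 41.6 CPM, and non-overlap was seen in 2.55% of all genes. The call was lost without the 5 mice with liver markers, of which 1 was a vehicle mouse, at -0.94 with an adjusted p of 0.0114. Sesn3 had a similar direction without passing the test, at 12.8 to 22.2 CPM in males and 18.5 to 24.6 CPM in females (log2 fold change -0.44, SE 0.12, adjusted p = 0.0647). M7, again, held the highest male value, and without it the difference passed (-0.55, adjusted p = 0.00929). The remaining 8 genes had log2 values of -0.34 to 0.13 between vehicle males and females, none called.

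Under corticosterone the order of Sesn1 was turned around. Treated males, at 73.1 CPM and above, all exceeded the treated females, at 67.0 CPM and below (log2 fold change 0.68, SE 0.18, adjusted p = 0.00531). Tsc2 and Tsc1 also had treated males above all treated females, with log2 fold changes of 0.56 (SE 0.082, adjusted p = 8.31e-05) and 0.43 (SE 0.093, adjusted p = 0.00144). Mtor was higher in treated males as well, by 0.32 (SE 0.070, adjusted p = 0.00143), with an overlap through F6. These 4 of 10 genes compare with 23.3% of all genes called between treated males and females (9.31% as higher in males), and the 3 genes without overlap with 12.4%. Without the 5 mice with liver markers 1 call was left, Tsc2 at 0.51 (adjusted p = 0.00486), and the calls among all genes went from 3043 to 290 of 13049 (2.22%), whereas without F4 all 4 stayed called. Sesn1 was the most dependent on single mice, losing this call in 11 of 33 alternatives with values of 0.54 to 0.74, namely without F6, F8, F10, M4, M8 or M10 and under 5 other settings. Cell-type markers moved along with this comparison. Of the Schwann cell markers 5 of 7, of the macrophage markers 6 of 7 and of the fibroblast markers 5 of 6 were lower in treated males, with summed fibroblast levels of 327.8 to 493.2 CPM against 521.6 to 1074 CPM in treated females. By the same rule 1828 of all 13049 genes were lower in treated males than in treated females. Erythrocyte markers were higher with corticosterone in both sexes, 4 of 5 tested, where 13.2% of all genes rose in males and 7.40% in females. The part of these cells in the differences was not tested.

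Within the groups the median spread of the 10 genes was below that of all genes, and their median correlation with each other was weak. The median SD of log2 CPM over the 10 genes was 0.14 in vehicle males, 0.153 in vehicle females, 0.159 in treated males and 0.165 in treated females, beside 0.199, 0.21, 0.206 and 0.277 over all genes. Deptor (0.288 to 0.422) and Sesn2 (0.292 to 0.649) lay above the all-gene median in every group. So did Sesn1 in vehicle females (0.422) and treated males (0.361), and Sesn3 in vehicle (0.285) and treated males (0.222). The genes were not matched for level. Over the 45 pairs, with deviations from the group means of the 23 mice, Pearson's r had a median of 0.0991 and ran from -0.6 (Rptor with Sesn2) to 0.699 (Deptor with Tsc2). Mtor and Tsc2 followed at 0.612, and 30 of the 45 values were positive. These values share libraries and normalization and are a description.

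For each called gene the most similar profiles over the 23 mice were looked up among all tested genes. Sesn1 was closest to Foxo3, which encodes a FOXO transcription factor (r = 0.921 over all mice, 0.712 within groups), before Zfp882 (0.904 and 0.583) and Dnajc1 (0.897 and 0.653). For Tsc2 they were Dnajb12 (0.965 and 0.816), Gm16576 (0.957 and 0.776) and Ryr1, the calcium release channel of muscle (0.954 and 0.871). Tsc1 was closest to Usp47 (0.935 and 0.794), Rmnd5a (0.928 and 0.861) and Mkln1 (0.917 and 0.764). Mtor stood nearest to Acacb, which encodes a form of acetyl-CoA carboxylase (0.947 and 0.753), Gcn1l1 (0.925 and 0.617) and Mroh1 (0.916 and 0.636). The shared group differences enter the first value of each pair and not the second.

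Foxo3 itself was 22.1 to 26.3 CPM in vehicle males (median 25.0) and 56.6 to 88.0 CPM in treated males (median 72.3). Vehicle females had 31.1 to 48.5 CPM (median 35.2), and the treated females had 62.6 (F2), 49.8 (F4), 64.3 (F6), 48.2 (F8) and 42.9 CPM (F10). Like Sesn1, it was lower in vehicle males than in all vehicle females (log2 fold change -0.58, SE 0.12, adjusted p = 0.00919). Unlike Sesn1, it also rose in females, by 0.52 on the log2 scale (SE 0.13, adjusted p = 0.00432) against 1.54 in males (SE 0.12, adjusted p = 2.09e-08). The difference of 1.02 passed the test (SE 0.18, adjusted p = 0.00607), but lost its call in 13 of 33 alternatives. The difference between the vehicle groups lost its call in 19 of 33 alternatives, with adjusted p up to 0.0512, and the female rise in 8 of 33, with adjusted p up to 0.0287.

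**Figure D3:**
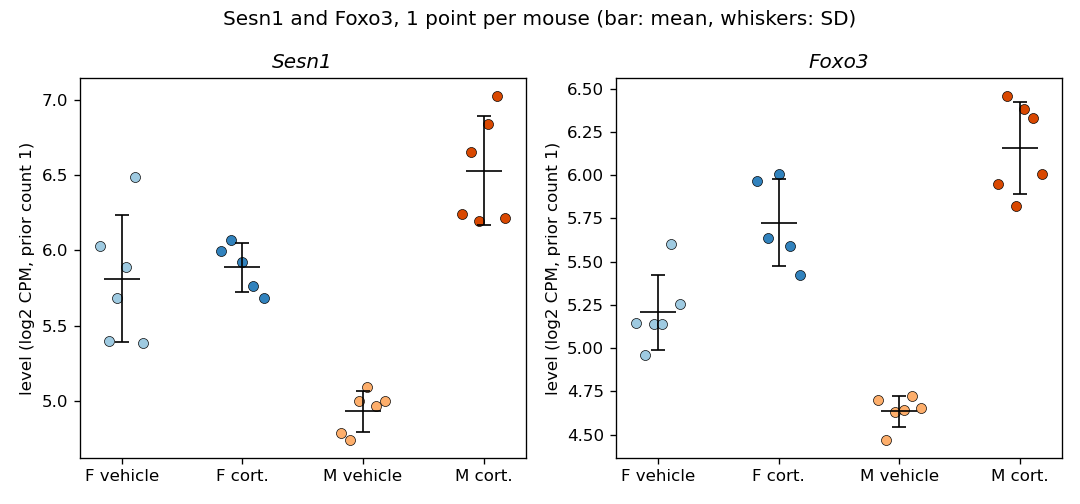
Sesn1 (left) and Foxo3 (right) in every mouse on the log2 CPM scale (prior count 1; the axes do not start at 0), with group means as bars and SD as whiskers. In both genes vehicle males are lowest and treated males have the highest mean. The female groups overlap in both genes, for Foxo3 with 42.9 CPM in the lowest treated against 48.5 CPM in the highest vehicle female.

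A further 64 genes of the pathway were grouped by role, and all were tested. In males 12 were higher and 5 lower, 26.6% of the 64 genes beside 26.3% of all genes tested, and in females 4 were higher and 7 lower, 17.2% beside 13.4%. The male share lay at that of all genes. By direction, 1720 of all 13049 genes were higher and 1706 lower in males, and 965 were higher and 783 lower in females. The medians of these 64 log2 fold changes were 0.0884 in males and -0.0744 in females. Among the targets and downstream genes of mTORC1, 5 of 15 rose in males and none fell, where 13.2% of all genes rose. In females none of the 15 rose and 2 fell, Grb10 and Maf1, where 7.40% of all genes rose and 783 of 13049 fell. The difference between these counts was not tested, and of the 15 genes Tfeb had a called interaction. The male genes were Eif4ebp1 and Eif4ebp2, encoding the translation repressors 4E-BP1 and 4E-BP2, Eef2k, the kinase that slows elongation, Atg13 of the autophagy starter complex, and Tfeb, a transcription factor for lysosomal genes. Eif4ebp1 rose from 61.3 to 171 CPM in males (log2 fold change 1.48, SE 0.23, adjusted p = 4.42e-05). Atg13 had a smaller and tighter change of 0.48 (SE 0.058, adjusted p = 1.71e-06).

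Tfeb, besides Foxo3, was the other pathway gene with a called interaction. It ran from 64.5 to 86.7 CPM in vehicle males and from 113 to 187 CPM in treated males, and the treated females had 93.5 (F2), 72.0 (F4), 73.5 (F6), 97.6 (F8) and 56.8 CPM (F10), inside or just below the vehicle female range of 63.7 to 121 CPM. The responses were 1.04 in males (SE 0.16, adjusted p = 2.33e-05) and -0.13 in females (SE 0.16, adjusted p = 0.588). The difference of 1.17 (SE 0.22, adjusted p = 0.00806) was lost in 21 of 33 alternatives, all of the same direction.

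Of the lysosomal platform that recruits mTORC1, the Rag, Ragulator and folliculin group, 3 of 12 genes were lower and none higher in each sex. Among all 13049 genes 1706 were lower in males and 783 in females. Fnip1, the folliculin partner, fell from 69.9 to 36.8 CPM in males (log2 fold change -0.93, SE 0.13, adjusted p = 8.67e-06) and from 65.0 to 40.1 CPM in females (-0.70, SE 0.13, adjusted p = 0.000795). Flcn, folliculin itself, fell by 0.52 in males (SE 0.14, adjusted p = 0.00509) and by 0.76 in females (SE 0.15, adjusted p = 0.000865) on the log2 scale. The third called gene was the Ragulator subunit Lamtor4 in males and Lamtor3 in females (-0.32, SE 0.074, adjusted p = 0.00340). Lamtor3 was not called in males, but its values were also lower, at 32.5 to 37.5 CPM in treated and 38.0 to 46.9 CPM in vehicle males. No gene of the group had a called interaction. In females Fnip1 and Flcn each lost their call in 2 of 33 alternatives, with adjusted p up to 0.0195 and 0.019. These were the fit of each sex alone and the fit without the mice over 1000 CPM of liver markers. Lamtor3 lost its female call in 8 of 33, both of these among them, with adjusted p up to 0.0578. The direction was kept throughout, and the male call of Fnip1 held in all 33.

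The GATOR and KICSTOR group, through which sestrins act, included Nprl3 as higher and Itfg2 as lower in males, and none of its 11 genes was called in females. Of the 4 other amino acid sensors Castor2, of the CASTOR arginine-sensing complex, was called as lower in females (-0.75, SE 0.16, adjusted p = 0.00140). It was not called in males, at 72.2 to 111 CPM in vehicle and 58.4 to 94.4 CPM in treated males. Of the kinases and brakes upstream, Ddit4, which encodes the stress-induced mTORC1 inhibitor REDD1, rose in both sexes. It went from 17.4 to 179 CPM in males (log2 fold change 3.37, SE 0.55, adjusted p = 5.99e-05) and from 17.5 to 82.5 CPM in females (2.24, SE 0.54, adjusted p = 0.00444), where F4 stayed at 9.73 CPM. Akt2, the kinase that relays insulin, rose in males by 0.71 (SE 0.13, adjusted p = 0.000135), and Stk11, the LKB1 kinase that activates AMPK, fell in females by 0.34 (SE 0.078, adjusted p = 0.00316). Akt2 was not called in females nor Stk11 in males. Castor2, Akt2 and Stk11 had no called interaction, so a difference between the sexes in these responses was not established. Of the remaining mTORC1 subunits and assembly factors, Akt1s1 was the 1 of 4 called in males, as higher, and Prr5 was the 1 of 4 mTORC2-specific genes called in females, as higher. Tbc1d7, the third TSC subunit, was called as lower in males.

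The transcription factors known to act on sestrin genes had 2 of 4 higher in each sex, Foxo1 and Foxo3. Of all genes 13.2% were higher in males and 7.40% in females. Foxo1 rose from 16.9 to 107 CPM in males (log2 fold change 2.66, SE 0.23, adjusted p = 5.11e-08) and from 20.04 to 65.2 CPM in females (1.70, SE 0.23, adjusted p = 3.51e-05). Between vehicle males and females Grb10, an insulin receptor adaptor and imprinted gene, was lower in males besides Foxo3, at 36.9 against 70.4 CPM (log2 fold change -0.93, SE 0.11, adjusted p = 2.48e-05). With corticosterone 14 of the 64 genes were higher in males than in females and 1, Prr5l, was lower. Together these are 23.4% of the 64 genes, beside 23.3% of all genes. By direction, 9.31% of all genes were higher in treated males and 1828 of 13049 were lower. Prr5l was sparse, at 4 to 9 counts in treated males and 9 to 86 counts in treated females. Its highest female levels were in F6 (3.48 CPM) and F10 (2.82 CPM), which are among the 5 mice with liver markers. Without those 5 mice its call was lost (adjusted p = 0.0789). Of the 14, 8 were among the 15 targets and downstream genes of mTORC1, including Eif4ebp2 (0.84, SE 0.12, adjusted p = 8.19e-05) and Eef2k (1.05, SE 0.17, adjusted p = 0.000207). Without the 5 mice with liver markers the count of 15 called genes was 3, and 290 of all 13049 genes were called.

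**Figure D4:**
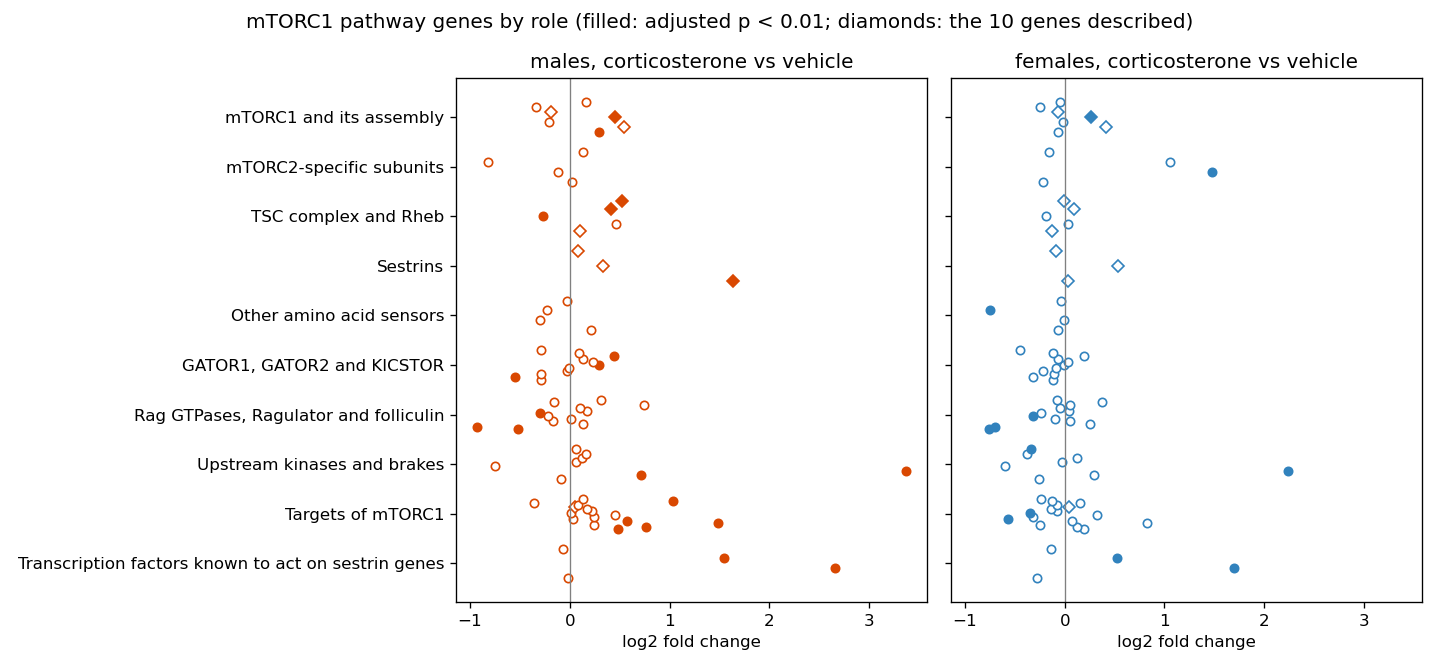
Log2 fold change with corticosterone against vehicle (horizontal axis) for the 10 genes (diamonds) and the 64 further pathway genes (circles), by role, in males (left) and females (right). Filled symbols passed an adjusted p below 0.01. In males 5 of 15 circles among the mTORC1 targets are filled and lie right of 0, and in females 2 are filled and lie left of 0.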

How the data were processed

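Bulk RNA sequencing of quadriceps was analysed in 23 mice. Per the labels and the study's methods, the authors checked reads with FastQC and MultiQC, aligned them with STAR (version 2.7.3a, two-pass) to mm10 and counted uniquely assigned pairs per gene with HTSeq-count (version 0.12.4, reverse-stranded, Ensembl release 97). They deposited raw counts for 55573 genes. The 5 HTSeq summary entries (10.73 to 15.34% of pairs) were left out. Of the identifiers, 55480 matched GENCODE M21, which gave symbols, positions (GRCm38) and union exon lengths, and 93 did not. No pair of replicates agreed within sampling noise (chi-square per degree of freedom at least 13.2). The labels number the mice but do not say how muscles were processed together, so p-values measure the spread between these mice. Whether the sexes were dissected, extracted and sequenced together is not given in the sources used here, so sex and such a batch cannot be told apart.

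The 10 genes, the lists and the tests were chosen with earlier results of these data known. Genes with over 20 normalized counts (median of ratios) in at least 4 mice of a group were tested, 13049 in all, by edgeR's quasi-likelihood test (version 4.0.16, R 4.3.3) with TMM scaling, 1 fit of 4 group means and Benjamini-Hochberg adjustment over all of them. The threshold was an adjusted p of 0.01. SE was the log2 fold change divided by the root of F, and 95% intervals used 19 residual degrees of freedom. CPM used TMM-scaled library sizes, and log2 CPM a prior count of 1. The test was checked on simulated counts. Named were the 10 genes, up to 8 other pathway genes per comparison with the smallest adjusted p, checks of the treatment, and the 3 genes most correlated with each called gene. Lamtor4, Akt1s1, Itfg2, Prr5 and Tbc1d7 are further called genes, named after their values were seen. Alternatives were DESeq2 (1.42.0), limma-voom (3.58.1), other scaling and filters, covariates, a replicate block, other thresholds and leaving out mice, among them, chosen after seeing the data, the 5 mice with over 1000 CPM of liver markers.

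Mice with the same number in the 2 sexes were not treated as paired. Over 11 such pairs the deviations from the group means correlated at -0.377 to 0.477, with 7 pairs over 0.1. All vehicle pairs were positive, at 0.0846 to 0.477, and treated pairs ran from -0.377 to 0.242. These values do not settle whether vehicle mice with the same number were handled together, so the block by number was run as an alternative.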

Additional observations from a re-analysis of the deposited data

Results flagged for a closer look

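Single mice stood apart in 8 of 116 groups of values, over 29 genes and 4 groups, by the gap of the highest or lowest mouse to the next one relative to the range; chance gives about 1 in 20. Among the 10 genes, vehicle female F7 had 33.2 CPM of Mtor against 37.1 to 39 CPM in the other vehicle females, treated female F10 had 69.9 CPM of Tsc2 against 89.3 to 94.8 CPM, and treated male M8 had 103 CPM of Rheb against 72.8 to 82.6 CPM. F10 and M8 had summed liver markers of 2374 and 2458 CPM, whose part was not tested. Among the other pathway genes, vehicle male M3 had 50.1 CPM of Ddit4 (others 5.78 to 17.8 CPM), treated female F4 62.6 CPM of Flcn (others 31.4 to 38 CPM), vehicle female F7 43.7 CPM of Lamtor3 (others 38.4 to 39.8 CPM), treated male M8 30.1 CPM of Nprl3 (others 24.6 to 26.6 CPM) and vehicle female F9 322 CPM of Eif4b (others 225 to 254 CPM).

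The corticosterone response differed between the sexes, by the interaction test in edgeR, for Sesn1 (1.61 on the log2 scale, male minus female response), Tfeb (1.17) and Foxo3 (1.02). In all 3 the male response was the larger one.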

How the results depend on the processing

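The male calls of Mtor, Tsc1, Tsc2 and Sesn1 held in all 33 alternatives per gene, and so did the higher Tsc2 level in treated males than in treated females. Other calls did not: that of Mtor in females was lost in 23 of 33, of Sesn1 for the interaction in 5, for vehicle males against females in 2 and for treated males against females in 11. Over all results and alternatives, 2404 kept direction and side of the threshold, 131 lost and 7 gained their call, and 32 changed sign. The cause of these changes was not tested. Where fewer mice were fitted, the test also had fewer degrees of freedom. Leaving out a mouse outside the 2 groups compared bears little on their fold change, as for Mtor in males, 0.458 with and without F4. Such a mouse enters through the scaling and the shared estimate of spread, so those alternatives are a weak check of a call.

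With a log2 change beyond 1 also required, the count of the 10 genes called was 1 in males, 0 in females, 0 between vehicle groups and 0 between treated groups, and that of the 64 pathway genes 5, 3, 0 and 3. At an adjusted p under 0.05 the 10 genes gave 2 for the interaction, and the pathway genes gave 26 in males, 19 in females, 7 for the interaction and 29 between treated groups. In females the 10 genes gave 0 with limma-voom, filterByExpr, no filter beyond 1 count, each sex fitted alone, the adipocyte or hepatocyte score as covariate, and without the 2 or the 5 mice with liver markers. For the interaction they gave 2 with median of ratios, DESeq2 and limma-voom, and 0 with the adipocyte score and without the 2 or the 5 mice; between vehicle groups 0 without the 5 mice, and between treated groups 1 without them. The pathway genes gave 11 in males and 7 in females with no filter; in females 3 with each sex alone, 3 with the adipocyte score and 1 without the 5 mice; for the interaction 5 with DESeq2, 4 with limma-voom, 1 with no filter, and 0 with the adipocyte score and without the 2 or the 5 mice; between vehicle groups 1 with filterByExpr, no filter, the hepatocyte score and without the 5 mice; and between treated groups 7 without the 2 and 3 without the 5 mice.

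Leaving out each mouse in turn gave 4 of the 10 genes in males, 0 to 1 in females, 0 to 2 for the interaction, 1 to 2 between vehicle groups and 3 to 4 between treated groups. For the pathway genes it gave 14 to 19, 5 to 15, 0 to 4, 1 to 2 and 12 to 20. With the replicate number as a block, which within-sex comparisons do not allow, the 10 genes gave 0 between vehicle groups and 2 between treated groups and the pathway genes 1 for the interaction and 1 between vehicle groups; 4 of 11 mice correlated best with their own number.

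Values near 0 changed sign. Tsc2 in females was 0.020 with the adipocyte score, 0.0033 with the hepatocyte score, 0.048 without the 2 mice, 0.053 without the 5 and -0.036 to 0.044 on leaving out mice. Sesn1 in females was -0.013 with no filter and -0.052 to 0.19 on leaving out mice. Rps6kb1 was -0.0010 in females with no filter, -0.00028 to 0.086 in males on leaving out mice, and for the interaction -0.010 with limma-voom, -0.037 with the adipocyte score and -0.041 to 0.051 on leaving out mice. For the interaction, Deptor was -0.060 with limma-voom and -0.0019 to 0.23 on leaving out mice, and Sesn2 0.20 with the adipocyte score and -0.39 to 0.037 on leaving out mice. Rheb between vehicle groups was -0.075 to 0.0019 on leaving out mice, and Sesn2 between treated groups 0.047 with the adipocyte score.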
